A study of Mus musculus with 4 samples.

Results

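Expression was followed for 8 genes that encode transcription factors of the oocyte: Figla, Sohlh1 and Sohlh2 of the basic helix-loop-helix (bHLH) class, the homeobox genes Nobox and Lhx8, the basal factors Taf4b and Tbpl2, and the forkhead gene Foxo3. They were taken by name from a table of 21957 genes, and all 8 were found. The table gives FPKM, fragments scaled by transcript length and by the fragments mapped in the library, so that levels can be compared between genes, in 4 RNA-seq libraries of mouse oocytes. GV oocytes, still in prophase with an intact germinal vesicle, were taken at 0 h. After 12 h of culture, MII oocytes had matured without drug, and the TubA-10 and TubA-20 oocytes had been kept with tubastatin A (TubA), an inhibitor of the deacetylase HDAC6, at 10 or 20 µM by the sample titles. The treatment field of the labels names 20 µM for the first and 11 µM for the second of these, so the doses are those of the titles only. All groups were oocytes of B6D2F1 (C57BL/6 x DBA) hybrid females aged 6 to 8 weeks and primed with gonadotropin, freed of cumulus cells and, for the cultured groups, kept in M16 medium. Each library was made from a pool of 100 oocytes by the study's methods, although its discussion speaks of single oocytes. MII oocytes were collected only where a polar body had been extruded, a choice that the methods do not give for the treated oocytes, so stage and drug cannot be told apart between MII and TubA-20.

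There was 1 library per condition. No spread between replicates, p-value or interval could be had, no difference below has a replicate check, and neighbours in an order of levels cannot be separated. A difference is given as the log2 of the ratio of FPKM + 1, and 2-fold on that scale was the line for counting a gene, which understates differences of low genes.

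In the ovary, SOHLH1 and SOHLH2 pair with each other and, with LHX8, NOBOX and FIGLA, drive the gene programme of the primordial and growing oocyte. FIGLA works with E proteins such as TCF3 and TCF12 on the E-box, and the zona pellucida genes are its classical targets. TAF4B is a gonad-enriched subunit of TFIID, and TBPL2 (also TBP2 or TRF3) takes the place of TBP in growing oocytes. FOXO3 holds primordial follicles dormant and is shut out of the nucleus by AKT. Fully grown oocytes have largely stopped transcription, and the mRNA they carry is translated or degraded during maturation.

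Promoters of Figla, Lhx8, Nobox and Tbpl2 are shown because, among the members from 5 FPKM, the first 3 were those with lower FPKM in TubA-20 than in MII, and Tbpl2 was the one furthest on the higher side. Each runs from 250 bases before to 50 bases after the RefSeq start in GRCm38.p6, 5′ to 3′, and capitals mark the E-box, CANNTG. For Figla and Lhx8 the RefSeq start differs from that of GENCODE M21. The GENCODE gene span of Figla (chr6:86016171-86020996) holds its whole window, and that of Lhx8 (chr3:154306294-154330659) holds part of its window beyond the first 50 bases. The Figla window is thus not upstream of the GENCODE start, and the Lhx8 window is so only in part.
Figla (chr6:86016941-86017240, plus strand): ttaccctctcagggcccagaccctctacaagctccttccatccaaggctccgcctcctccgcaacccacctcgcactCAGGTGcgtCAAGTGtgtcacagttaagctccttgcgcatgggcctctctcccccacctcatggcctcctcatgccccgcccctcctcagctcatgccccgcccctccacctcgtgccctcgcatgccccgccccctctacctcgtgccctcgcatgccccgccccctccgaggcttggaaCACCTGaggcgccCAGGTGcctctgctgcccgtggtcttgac
Lhx8 (chr3:154330511-154330810, minus strand): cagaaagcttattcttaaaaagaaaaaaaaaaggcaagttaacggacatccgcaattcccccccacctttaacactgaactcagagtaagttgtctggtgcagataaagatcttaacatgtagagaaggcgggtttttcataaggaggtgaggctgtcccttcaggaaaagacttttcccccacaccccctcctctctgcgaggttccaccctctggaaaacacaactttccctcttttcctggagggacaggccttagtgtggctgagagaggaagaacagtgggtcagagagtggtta
Nobox (chr6:43309505-43309804, minus strand): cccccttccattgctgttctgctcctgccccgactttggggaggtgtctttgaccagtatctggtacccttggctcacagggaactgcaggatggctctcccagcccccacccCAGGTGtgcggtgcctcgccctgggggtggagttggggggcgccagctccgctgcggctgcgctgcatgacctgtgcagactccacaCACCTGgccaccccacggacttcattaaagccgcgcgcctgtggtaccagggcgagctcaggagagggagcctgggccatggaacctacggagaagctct
Tbpl2 (chr2:24096546-24096845, minus strand): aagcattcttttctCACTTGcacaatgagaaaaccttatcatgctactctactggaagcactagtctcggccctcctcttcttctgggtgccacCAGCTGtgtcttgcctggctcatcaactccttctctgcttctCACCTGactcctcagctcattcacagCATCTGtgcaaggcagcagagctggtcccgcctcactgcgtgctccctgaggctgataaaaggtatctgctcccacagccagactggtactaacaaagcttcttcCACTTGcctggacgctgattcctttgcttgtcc
The E-box was found 4 times in the Figla window, 2 times in that of Nobox, 5 times in that of Tbpl2 and not in that of Lhx8. It was found 5 times before Sohlh1, 1 time before Sohlh2 and not before Foxo3, and Taf4b has no entry. Of all 27025 promoters of the same length, 72.1% held at least 1 E-box and 2.10% held 5 or more. The word reads the same on both strands. The other 4 words, searched on both strands, were in none of the 7 windows: the homeodomain words TAATTA and TAATTG (5.31% and 8.15% of all promoters), the TATA word TATAAA (14.2%) and the forkhead word GTAAACA (3.55%). The genes with lower FPKM in TubA-20 included Figla and Nobox, with E-boxes in the window, and Lhx8, with none; a match is a description and not a binding site.

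Nobox, which codes for a homeodomain protein needed for early follicle growth, had the highest FPKM of the 8 genes in every library. It lies on the minus strand of GRCm38 chr6:43303674-43309554. Its FPKM was 219 in GV oocytes and 194 in MII oocytes, against 189 with TubA-10 and 125 with TubA-20. The first 3 libraries lay close together, and TubA-20 was the lowest.

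Lhx8, a LIM homeobox gene of the same network, lies on the minus strand at chr3:154306294-154330659. Its FPKM was 96.5 in GV oocytes and 65.4 in MII oocytes, against 105 with TubA-10 and 35.6 with TubA-20. TubA-10 was close to GV, MII was lower and TubA-20 was the lowest.

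Figla, the bHLH activator of the zona pellucida genes, lies on the plus strand at chr6:86016171-86020996. Its FPKM was 90.5 in GV oocytes and 41.9 in MII oocytes, against 70.2 with TubA-10 and 12.4 with TubA-20. It was 2.16-fold lower in MII than in GV and 7.29-fold below it in TubA-20. TubA-10 lay between GV and MII, and TubA-20 was 3.38-fold below MII.

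The other bHLH genes were low. Sohlh2, the partner of Sohlh1, on the plus strand at chr3:55182028-55209957, had 2.501 FPKM in GV oocytes and 3.98 in MII oocytes, against 3.75 with TubA-10 and 6.78 with TubA-20. It was highest in TubA-20, at 2.71 times its FPKM in GV. Sohlh1, on the minus strand at chr2:25842995-25847248, had 0.228 FPKM in GV oocytes, 0.324 in MII oocytes and 0.578 with TubA-10, and was listed at 0 in TubA-20. At these values its differences rest on very few fragments, and no fold is given against the library listed at 0.

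Tbpl2, the oocyte relative of TBP, on the minus strand at chr2:24071721-24096595, had 15.6 FPKM in GV oocytes and 15.3 in MII oocytes, against 18.8 with TubA-10 and 27.2 with TubA-20. GV and MII were nearly equal, and TubA-20 was 1.78 times MII. Taf4b, the TFIID subunit, on the plus strand at chr18:14783245-14900359, had 7.30 FPKM in GV oocytes and 11.2 in MII oocytes, against 9.03 with TubA-10 and 12.6 with TubA-20. GV was the lowest of its 4 values, and MII and TubA-20 were the highest. A processed pseudogene lies within Taf4b on the same strand, and how its reads were assigned was not tested. Overlap of the other 7 genes with annotated genes is not reported here.

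Foxo3, on the minus strand at chr10:42181841-42276755, had 26.3 FPKM in GV oocytes and 25.5 in MII oocytes, against 27.5 with TubA-10 and 36.4 with TubA-20. Its values in GV, MII and TubA-10 lay close together, and TubA-20 was the highest.

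**Figure D1:**
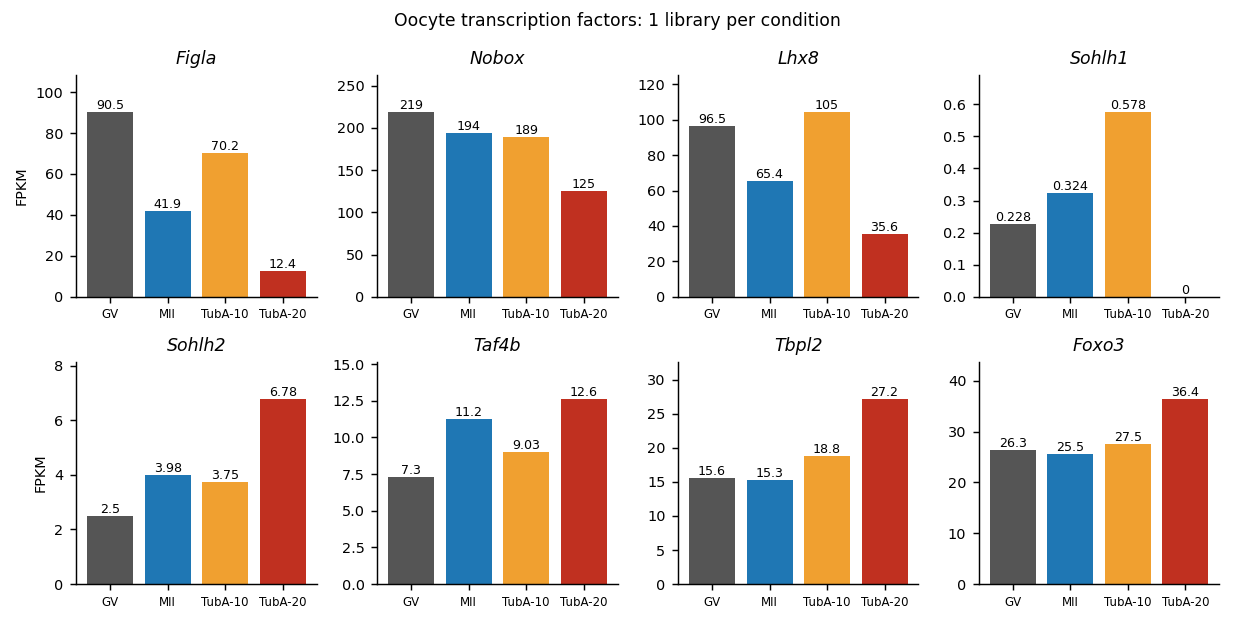
FPKM of the 8 oocyte transcription factor genes in the 4 libraries, 1 bar per library, in 1 panel per gene with its own linear axis from 0 and the value above each bar. Figla, Nobox and Lhx8 were lowest in TubA-20 (12.4, 125 and 35.6 FPKM), whereas Sohlh2, Taf4b, Tbpl2 and Foxo3 were highest there (6.78, 12.6, 27.2 and 36.4 FPKM).

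By FPKM the order of the genes was the same in GV, MII and TubA-10, from Nobox through Lhx8, Figla, Foxo3, Tbpl2, Taf4b and Sohlh2 to Sohlh1. In TubA-20 Nobox was still first, but Foxo3 came next, ahead of Lhx8 and Tbpl2, and Figla stood at place 6, behind Taf4b. Foxo3 and Lhx8, at 36.4 and 35.6 FPKM, and Taf4b and Figla, at 12.6 and 12.4 FPKM, were neighbours there whose order cannot be resolved without replicates. Nobox stood above 96.2% of the genes detected in GV and 93.4% of those detected in TubA-20. Figla went from above 91.1% in GV to above 67.1% in TubA-20, and Sohlh2 from above 43.3% to above 57.8%.

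The 8 genes summed to 458 FPKM in GV oocytes and 358 in MII oocytes, against 424 with TubA-10 and 256 with TubA-20. Figla, Nobox and Lhx8 made up 88.7% of that sum in GV oocytes, 84.3% in MII oocytes, 85.9% with TubA-10 and 67.6% with TubA-20. Taf4b, Tbpl2 and Foxo3 made up 10.7%, 14.5%, 13.0% and 29.8% of it in the same order of libraries. The sum in TubA-20 was the lowest while the part taken by the last 3 genes was the highest.

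The first comparison set MII oocytes, matured without drug in 12 h of culture, beside GV oocytes taken at 0 h. Maturation, culture and the choice of oocytes with a polar body cannot be told apart in it. Between MII and GV, 1 of the 8 genes, Figla, passed 2-fold, on the lower side, with a log2 difference of -1.09. Across all genes 11.4% passed in either direction, 8.34% on the lower side, and of genes with at least 5 FPKM in either library 29.0% passed. Taf4b (0.56) and Sohlh2 (0.51) were higher short of 2-fold and Lhx8 (-0.55) was lower short of it. Nobox (-0.17), Sohlh1 (0.11), Tbpl2 (-0.03) and Foxo3 (-0.04) were within 0.2 of 0, and the sign of each of these 4 turned under at least 1 other scaling. The median of the 8 was -0.04, beside 0 for all genes and 0.11 for those from 5 FPKM, and it too changed sign with scaling (-0.16 to 0.17). The Figla count is lost when libraries are set to equal FPKM sums or equal Gapdh, under which its log2 difference was -0.97 and -0.87.

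Between TubA-20 and GV 3 of the 8 passed 2-fold: Figla (-2.77) and Lhx8 (-1.41) were lower and Sohlh2 (1.15) was higher. Of all genes 19.3% passed, 11.7% lower and 7.61% higher, and of genes from 5 FPKM 47.0% passed. Nobox was lower by less than 2-fold (-0.80), and Tbpl2 (0.77), Taf4b (0.72) and Foxo3 (0.45) were higher by less than 2-fold. Sohlh2 was at 0.96, under the line, when the median of all genes was set to 0. Between TubA-10 and GV none of the 8 passed 2-fold, where 6.34% of all genes and 16.0% of those from 5 FPKM did, and the 8 values ran from -0.36 (Figla) to 0.44 (Sohlh2). These comparisons share the GV library and are not independent of each other.

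Between TubA-20 and MII, which were cultured for the same 12 h, 1 of the 8 passed 2-fold. This was Figla at -1.68, where 2.77% of all genes and 6.63% of genes from 5 FPKM passed, and 2.44% of all genes were past it on the lower side. Of the genes from 5 FPKM, 0.459% had a lower value than Figla, 8.55% a lower value than Lhx8 (-0.86) and 13.2% a lower value than Nobox (-0.63). At the other end Tbpl2 (0.79) exceeded 98.2% of these genes and Foxo3 (0.50) 89.1%. Sohlh2 (0.64) was past 5 FPKM in TubA-20 (6.78) but not in MII (3.98). Its place among these genes was thus partly set by the filter and is not given. Taf4b (0.16) exceeded 59.5%. Sohlh1 was at -0.41 on the FPKM + 1 scale, which comes from 0.324 FPKM against 0. The median of the 8 was -0.12, beside 0 for all genes, and 4 were higher and 4 lower. All 8 kept their sign under the 6 other pseudocounts and scalings tried.

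Between TubA-10 and MII none of the 8 passed 2-fold, where 0.642% of all genes and 1.49% of those from 5 FPKM did. Figla (0.73) and Lhx8 (0.67) were higher in TubA-10, above 95.2% and 93.7% of the genes from 5 FPKM. Nobox (-0.04), Sohlh2 (-0.07) and Foxo3 (0.10) were within 0.2 of 0, Tbpl2 was at 0.28, Sohlh1 at 0.25 and Taf4b at -0.29. Figla and Lhx8 therefore stood on opposite sides of MII in the libraries from the treatments, higher in TubA-10 and lower in TubA-20. The median of genes from 5 FPKM did the same in their classes of transcript length. It was 0.27 and -0.29 up to 1000 bases (Figla), and 0.22 and -0.09 from 1000 to 2000 bases (Lhx8). Set against each other, TubA-20 and TubA-10 differed past 2-fold in Figla (-2.41) and Lhx8 (-1.53), 2 of 8, both lower in TubA-20, where 6.18% of all genes and 15.6% of those from 5 FPKM did, 5.52% of all genes on the lower side. Whether this order follows dose was not tested, since the labels disagree on the doses and each has 1 library.

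**Figure D2:**
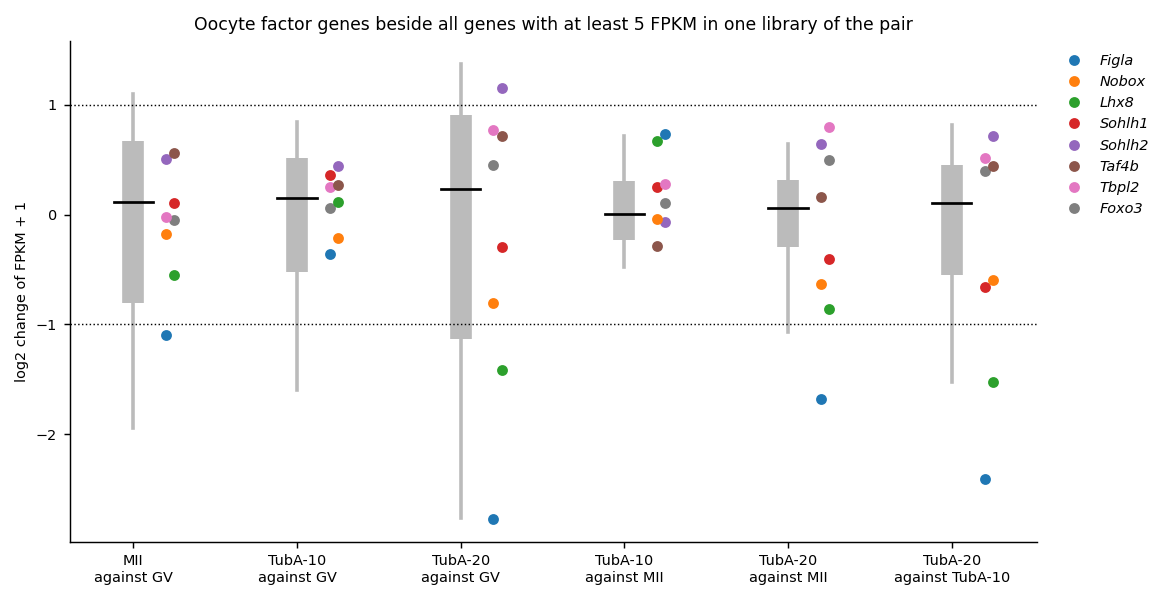
Log2 of the ratio of FPKM + 1 for the 8 genes (coloured points) in the 6 pairs of libraries, beside all genes with at least 5 FPKM in either library (grey: thick bar from quartile to quartile, thin bar from the 5% to the 95% point, black line at the median) and dotted lines at 2-fold. Figla is the lowest point in TubA-20 against GV (-2.77) and against MII (-1.68), and none of the 8 passes 2-fold in TubA-10 against MII, where 1.49% of the genes drawn in grey do.

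Ratios within a library do not depend on how libraries are scaled to each other. Figla stood at 3.43 times Foxo3 in GV oocytes, 1.64 times in MII oocytes, 2.56 times with TubA-10 and 0.341 times with TubA-20. In the same order of libraries, Lhx8 stood at 3.66, 2.56, 3.81 and 0.978 times Foxo3, and Nobox at 8.32, 7.61, 6.89 and 3.44 times. All 3 ratios were lowest in TubA-20. The part of transcript length, which differs between these genes, was not tested. In TubA-20 against GV, genes up to 1000 bases (Figla) had a median of -1.27 and those of 1000 to 2000 (Lhx8, Nobox) -0.57. Those over 5000 bases, the class of Foxo3, had a median of 0.79. Figla was also lower against the other 2 genes that were lower themselves: it was 0.413 of Nobox in GV oocytes, 0.216 in MII oocytes, 0.371 with TubA-10 and 0.0991 with TubA-20. Against Lhx8 it was 0.938, 0.641, 0.671 and 0.348 in that order. Tbpl2 over Foxo3 moved little, at 0.591, 0.599, 0.684 and 0.747. Taf4b over Foxo3 moved more, at 0.277, 0.441, 0.329 and 0.347, as did Sohlh2 over Foxo3, at 0.0949, 0.156, 0.137 and 0.186.

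**Figure D3:**
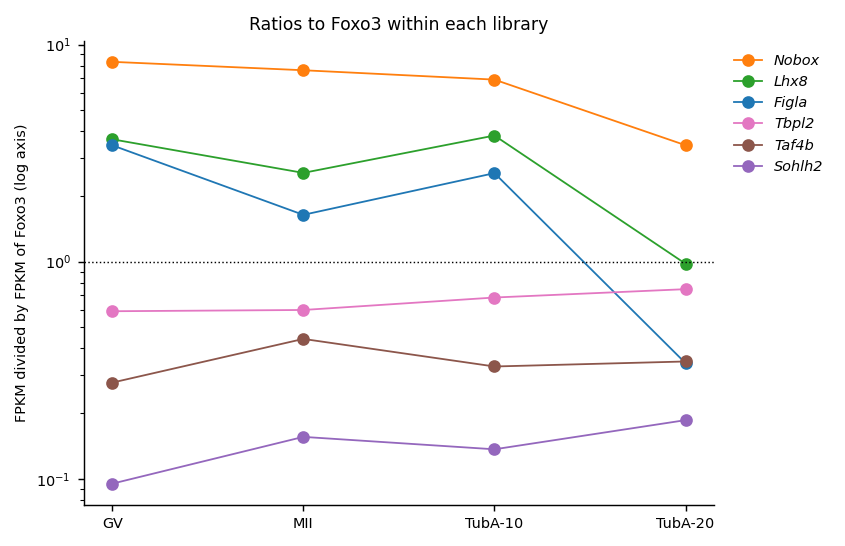
FPKM of Figla, Nobox, Lhx8, Tbpl2, Taf4b and Sohlh2 divided by the FPKM of Foxo3 in the same library, on a log axis with a dotted line at equal FPKM; lines only link the points of 1 gene across 4 separate libraries. Figla over Foxo3 ran from 3.43 in GV to 0.341 in TubA-20, and Tbpl2 over Foxo3 from 0.591 to 0.747.

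The members' transcripts differ widely in length, and length went with the differences across all genes. By 1 coding transcript per gene from GENCODE M21, the principal isoform or else the longest, the Figla mRNA has 759 bases in 3 exons, Sohlh1 1289, Tbpl2 1379, Lhx8 1729, Nobox 1893, Sohlh2 2364, Taf4b 5149 and Foxo3 6848. Across 7866 genes with at least 5 FPKM and a matched transcript, Spearman's rho between length and log2 difference was 0.43 for MII against GV, 0.37 for TubA-20 against GV, -0.40 for TubA-10 against MII and 0.14 for TubA-20 against MII. These are descriptions across genes of the same libraries, which are not independent replicates, and this look at length was chosen after values were seen.

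Among the 653 genes with transcripts of up to 1000 bases, the class of Figla, the median was -0.87 in MII against GV and -1.27 in TubA-20 against GV. In MII against GV 44.3% of that class lay below Figla, so its value was near the middle of its class. In TubA-20 against MII the class median was -0.29, and Figla lay 1.38 lower, with 2.45% of the class below it. In TubA-20 against GV 18.8% of the class lay below it. In TubA-10 against MII the class median was 0.27, and 88.4% of the class lay below Figla.

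Lhx8, Nobox and Tbpl2 fall in the class of 1000 to 2000 bases, with 1950 genes and a median of -0.09 in TubA-20 against MII. Of that class 14.1% lay below Lhx8, 21.9% below Nobox and 97.0% below Tbpl2. Sohlh2 falls in the class of 2000 to 3000 bases, but it was past 5 FPKM only in TubA-20, so its place there is not given. Of the 1314 genes over 5000 bases, Foxo3 lay above 94.1% and Taf4b above 63.4%. In MII against GV Foxo3 lay above 18.1% of that class, whose median was 0.66, while its own value was -0.04. In TubA-10 against MII the median of the class of 1000 to 2000 bases was 0.22. Of that class 88.2% then lay below Lhx8, 25.5% below Nobox and 54.8% below Tbpl2.

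**Figure D4:**
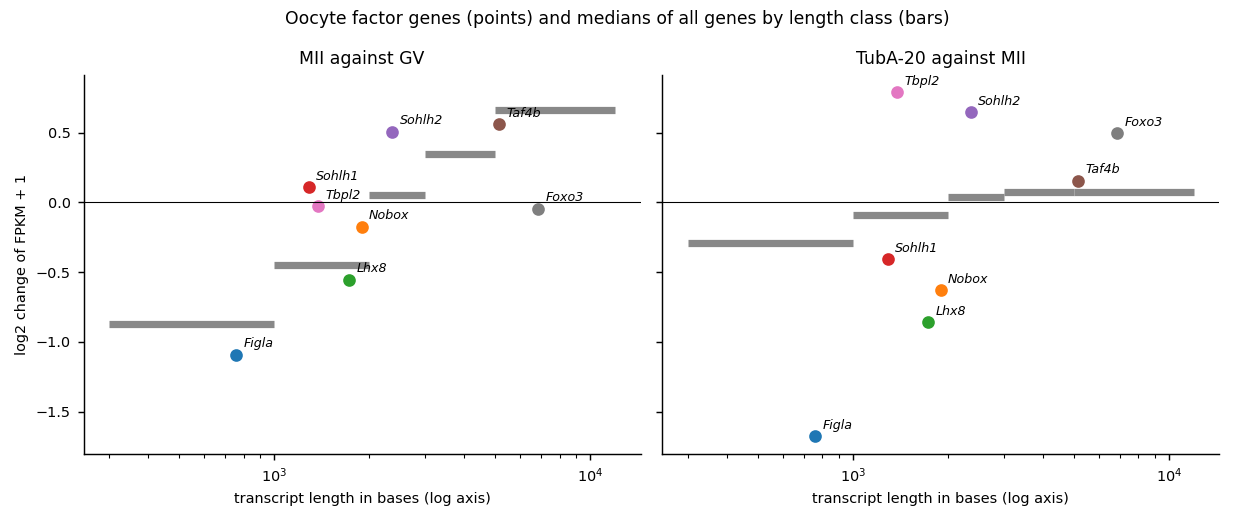
Log2 difference against annotated transcript length in bases (log axis) for the 8 genes in MII against GV and in TubA-20 against MII, with the median of all genes in each of 5 length classes as a grey bar; the first and the last class are open at the outer end, where the bar stops short. Short transcripts had the lowest class medians (-0.87 up to 1000 bases and 0.66 over 5000 bases in MII against GV).

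The 3′ ends were searched for the cytoplasmic polyadenylation element, a word bound by CPEB that directs tail lengthening in maturing oocytes, as TTTTAT or TTTTAAT in the last 100 bases, on the transcript strand. This search was also chosen after values were seen. Sohlh2 alone of the 8 held it, 2 times, and its last 30 bases are shown with 1 of these, 11 bases before the end, in capitals. This copy lies after the polyadenylation signal AATAAA, which starts 27 bases before the end, and whether it acts was not tested.
Sohlh2 (last 30 bases of the transcript): tttaataaaatgttttctcTTTTATaataa
The word was in 20.5% of the 7866 genes. Their median log2 difference was 0.72 in TubA-20 against GV and 0.50 in MII against GV, beside 0.01 and -0.01 for genes without it. In TubA-20 against MII it was 0.17 beside -0.02. The order was the other way round in TubA-10 against MII, at -0.12 beside 0.06. The libraries were made from poly(A)-selected RNA and tail length was not measured, so more mRNA and longer tails cannot be told apart here.

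A list of 7 genes held the E proteins that pair with bHLH members and the Id proteins that block them. In MII against GV 5 of the 7 were higher and 2 lower with a median of 0.24, and in TubA-20 against MII 3 were higher and 4 lower with a median of -0.02. None of them passed 2-fold in the second pair, where 2.77% of all genes and 6.63% of those from 5 FPKM did, but 1 of 7 passed lower under 3 of the 4 scalings, with Id3 at down to -1.08. Tcf4 alone of the 7 passed in MII against GV, beside 11.4% and 29.0%, and it no longer did with the median of all genes set to 0. In TubA-20 against GV Tcf12 passed higher, and Id1 and Id3 lower, beside 19.3% and 47.0%. Tcf12 no longer passed with the median set to 0 or with equal upper quartiles, nor Id1 with equal Gapdh (-0.98). The E proteins Tcf3 (14.4 FPKM in GV oocytes, 17.3 in MII oocytes, 16.2 with TubA-10, 18.5 with TubA-20) and Tcf12 (3.99, 7.84, 6.65 and 9.02) were highest in TubA-20, although the sign of Tcf3 in TubA-20 against MII (0.09) turned with another scaling (-0.06). The other E protein, Tcf4, was not highest there, at 6.06 FPKM in MII and 5.95 in TubA-20. Id3, which blocks E proteins, was lowest there, at 28.5 FPKM in GV oocytes and 23.2 in MII oocytes, against 18.8 with TubA-10 and 11.7 with TubA-20. Id1 was also lowest in TubA-20, at 0.871 FPKM, and Id4 was highest there, at 0.587 FPKM. The log2 difference of Id3 from GV was -1.21 in TubA-20 and -0.29 in MII.

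Most genes of the basal machinery around Taf4b and Tbpl2 had higher FPKM in the cultured libraries than in GV. Of 20 genes of TFIID, TFIIA and TFIIB, 18 were higher and 2 lower in MII than in GV, with 2 past 2-fold, both higher, and a median of 0.65, beside 0.11 for all genes from 5 FPKM. Across all genes 11.4% passed, and of those from 5 FPKM 29.0%. The count of 2 was 1 with the median of all genes set to 0 and 7 with equal Gapdh. In TubA-10 against GV 19 were higher and 1 lower, with a median of 0.55. In TubA-20 against GV 18 were higher and 2 lower, and the median was 0.86, beside 0.23 for all genes from 5 FPKM. Of these, 9 passed 2-fold higher and 1 lower, 10 of 20 in all beside 47.0% of all genes from 5 FPKM, and 6 passed higher with the median of all genes set to 0. In TubA-20 against MII 15 were higher, 5 lower and none past 2-fold, where 2.77% of all genes and 6.63% of those from 5 FPKM were, with a median of 0.20 beside 0.06 for the latter. In TubA-10 against MII 7 were higher and 13 lower, with a median of -0.23.

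Taf4, the broadly expressed paralog of Taf4b, had 22.8 FPKM in GV oocytes and 48.5 in MII oocytes, against 37.4 with TubA-10 and 62.9 with TubA-20. It stood at 3.13, 4.32, 4.14 and 4.98 times Taf4b in that order. Tbp, whose place TBPL2 takes in growing oocytes, had 44.9, 33.9, 52.5 and 37.4 FPKM, which was 2.88, 2.22, 2.80 and 1.37 times Tbpl2. Tbp was thus higher than Tbpl2 in every library, and nearest to it in TubA-20. Tbpl1, the other TBP relative, had 6.30, 13.5, 10.9 and 22.7 FPKM and a log2 difference of 0.71 in TubA-20 against MII, close to the 0.79 of Tbpl2. Gtf2a1, a TFIIA subunit, was at 17.7 FPKM in GV oocytes and 68.9 in MII oocytes, against 36.8 with TubA-10 and 64.4 with TubA-20, so that TubA-10 lay between GV and the other two. Its germ cell paralog Gtf2a1l was at 48.8, 73.2, 62.0 and 65.4 FPKM. Taf12, a histone-fold TFIID subunit, was the one gene of the list past 2-fold lower in TubA-20 against GV, at -1.01, and it was at -0.94 with equal Gapdh.

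Around Foxo3, 13 of 16 genes of the FOXO family and the PI3K pathway were higher in MII than in GV and 3 were lower, with a median of 0.49. Past 2-fold were 18.8% of the list, beside 11.4% of all genes and 29.0% of those from 5 FPKM. Pdpk1, the kinase that activates AKT (23.8 FPKM in GV and 57.4 in MII), and Rps6kb1, which codes for S6 kinase (8.47 and 18.8), passed 2-fold higher, the second no longer with the median of all genes set to 0 (0.94). Stk11, which codes for the kinase LKB1, passed 2-fold lower, at 86.7 FPKM in GV and 27.4 in MII. In TubA-20 against GV 12 were higher and 3 lower, 3 past 2-fold higher and 1 lower, with Foxo4 at 0 in both and a median of 0.48. The 4 of 16 past 2-fold stood beside 19.3% of all genes and 47.0% of those from 5 FPKM. The 3 higher became 2 with the median of all genes set to 0, where Foxo1 was at 0.95, and 5 with pseudocounts of 0.1 and 0.01. In TubA-20 against MII 10 were higher and 6 lower, none past 2-fold where 2.77% of all genes and 6.63% of those from 5 FPKM were, with a median of 0.08 that turned to -0.06 with another scaling. The count became 1 higher with a pseudocount of 0.1, and 1 higher and 1 lower with 0.01. Foxo1, a paralog of Foxo3, had 33.7 FPKM in GV oocytes and 52.0 in MII oocytes, against 48.6 with TubA-10 and 75.7 with TubA-20. It stood at 1.28, 2.04, 1.77 and 2.08 times Foxo3. Foxo4 was at or below 0.0447 FPKM in every library.

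Another list held 15 oocyte genes placed downstream of the oocyte factors or of one of them. Of these, 10 were higher and 5 lower in MII than in GV, with 1 past 2-fold on each side: Bmp15, a growth factor of the oocyte (1.08, but 0.95 with the median of all genes set to 0), and Fgf8 (-3.34). These 13.3% of the list stood beside 11.4% of all genes and 29.0% of those from 5 FPKM. In TubA-20 against GV 9 were higher and 6 lower, 3 past 2-fold higher and 5 lower, with a median of 0.25. These were 53.3% of the list beside 47.0% of all genes from 5 FPKM, and 1 in place of 3 passed higher with the median of all genes set to 0. In TubA-20 against MII 6 were higher and 9 lower, and 4 passed 2-fold, all lower, which is 26.7% of the list. Of all genes 2.44% were past it on the lower side, and of those from 5 FPKM 6.63% passed in either direction. These were Fgf8 (-1.52), the zona pellucida genes Zp2 (-1.41) and Zp3 (-1.21), and Padi6 (-1.14), which codes for a protein of the cytoplasmic lattices. Zp3 and Padi6 are outside the rule for naming and are given because the count is small, and it was 4 under each of the 6 other pseudocounts and scalings. Zp2 had 753 FPKM in GV oocytes and 778 in MII oocytes, against 770 with TubA-10 and 293 with TubA-20, so that only TubA-20 stood apart. Zp1 was at 910.5, 651, 553 and 429 FPKM. Other genes of the list went the other way in TubA-20 against MII: Oosp1 (0.82) and Mos (0.52), the kinase that keeps MII arrest.

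**Figure D5:**
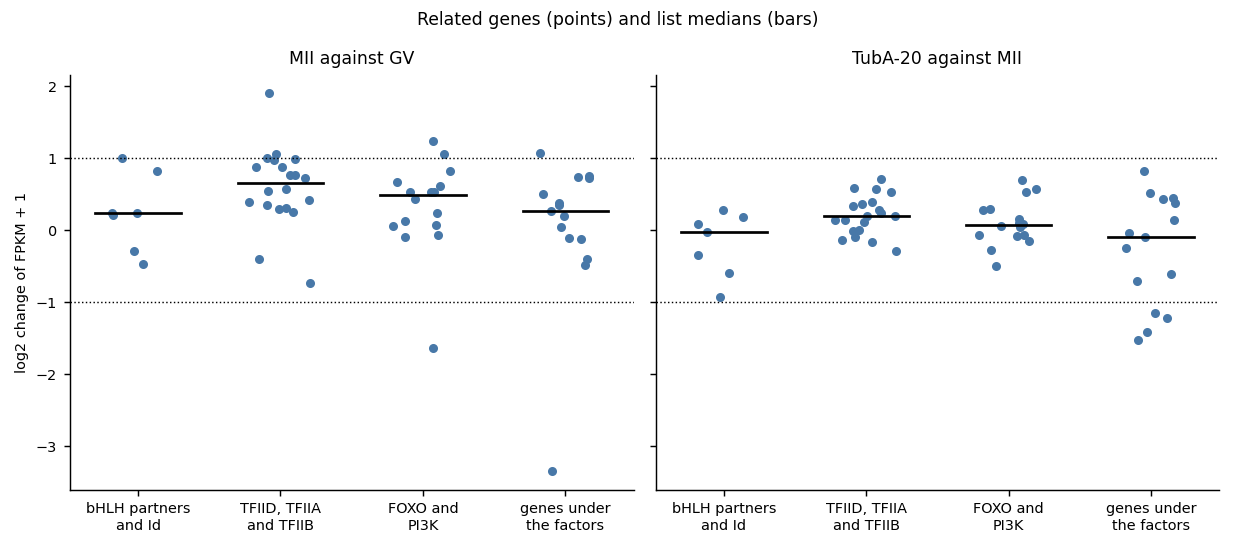
Log2 differences of the genes of each related list, 1 point per gene, with the median of the list as a black bar and dotted lines at 2-fold, in MII against GV and in TubA-20 against MII; points are spread sideways only to be seen. The TFIID, TFIIA and TFIIB list had a median of 0.65 in MII against GV and 0.20 in TubA-20 against MII, and the list of genes under the oocyte factors -0.10 in TubA-20 against MII.

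Genes with the most similar profile were sought among 7897 genes with at least 5 FPKM in a library, by the largest gap over the 3 log2 differences from GV, over 4 libraries. Few genes were close to Figla: 2 lay within 0.2, Kat14 (gap 0.18) and Ppp2r2b (0.19), and Ppp3cc came next at 0.23. Kat14, a subunit of the ATAC acetyltransferase complex, had 122 FPKM in GV oocytes and 55.3 in MII oocytes, against 83.1 with TubA-10 and 17.7 with TubA-20. Lhx8 had 24 genes within 0.2, led by Tmem116 (0.07), Tspan33 and Wdr83os, and Nobox 44, led by Hacd3 (0.05), Med26 and Haus8. Tbpl2 had 58, led by Gm26566 (0.08), Hacd4 and Tmem265, and Foxo3 151, led by Acly (0.03), Zmat4 and Znhit6. Sohlh2 had 249, led by Daw1 (0.03), Mgst3 and Tanc2, and Taf4b 449, led by Pxdn (0.04), Egln1 and Gnpda2. Sohlh1 was too low to be compared.

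The 10 oocyte markers were present in every library, with a sum between 20402 and 30266 FPKM. Of 14 cumulus and granulosa markers, Foxl2 was at 0 in all 4 libraries and 2 to 5 were at 0 in each. Their sums were 67.1 FPKM in GV oocytes and 51.2 in MII oocytes, against 52.5 with TubA-10 and 55.4 with TubA-20, mostly from Esr2, Nr5a2 and Cyp19a1. Inha, made by granulosa cells, was at 7.50 FPKM in GV and at 0.239 to 0.314 in the others, whereas Tnfaip6 and Ptx3, made by expanding cumulus cells, were at 0 in GV and at 1.57 and 1.19 FPKM in TubA-20. Of the 14, these 2 passed 2-fold higher in TubA-20 against both GV and TubA-10, against GV only 1 of them with the median of all genes set to 0, and Inha passed lower against GV. The 3 of 14 against GV stood beside 19.3% of all genes and the 2 of 14 against TubA-10 beside 6.18%, and their part in the differences was not tested. The 5 blood markers summed to at most 0.0779 FPKM. Of 6 germ cell and prophase markers Stra8 and Rec8 were at 0 in all 4, and the sums were 34.7 FPKM in GV oocytes, 72.5 in MII oocytes, 49.6 with TubA-10 and 82.8 with TubA-20. FPKM summed to between 568331 and 627340 per library, and 15281, 15358, 15440 and 14434 genes were above 0 in the same order, fewest in TubA-20. Fewer molecules per oocyte and a smaller share of the library cannot be told apart in these pooled samples.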

How the data were processed

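RNA from the GV, MII and treated oocytes was poly(A)-selected and sequenced in pairs of reads, with 1 library per condition. Reads were aligned with STAR 2.5.0 per the submitters' processing notes, and Cufflinks was run in strand-specific mode on mm10 gene models. The authors deposited FPKM per gene, with Cuffdiff 2.2.1 also named in those notes, and these values hold no fragment counts. In the low FPKM values, the steps left by single fragments put the depth of TubA-20 at 0.896 of that of GV, with 81.1% of nearby ratios at the step; for MII and TubA-10 only 23.6% and 30.1% were, so the steps did not settle their depth. The read totals given by the study put both above GV, and TubA-20 slightly above GV rather than below it. No interval could be given.

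Of 21959 entries 21794 were given a symbol through GENCODE M21 and 165 kept their identifier; entries of 1 symbol were summed, leaving 21957 genes. Differences are log2 of the ratio of FPKM + 1 without a filter on low values, and were checked on simulated data. A gene was counted past 2-fold, the fold threshold of the study, which joined it to a false discovery rate; no test was run here. Alternatives were pseudocounts of 0.1 and 0.01, minimums of 1 and 5 FPKM in either library, and 4 scalings (median difference set to 0, equal FPKM sums, equal upper quartiles, equal Gapdh). From each related list the text could name the 2 genes with the largest rise and the 2 with the largest fall in MII against GV and in TubA-20 against MII, from 5 FPKM, and named paralogs and partners of members in any case; not every gene the rule allows is named, and the text also gives others chosen after their values were seen (Zp3, Padi6, Klf2, Id1, Id4, Irs2, Fbxo32, Trim63, Pdk4, and the markers Foxl2, Tnfaip6, Ptx3, Stra8, Rec8, Dmc1 and Prdm1). The members and lists were chosen with earlier results of these data known. Locations are from GENCODE M21 (GRCm38) and promoters from RefSeq (GRCm38.p6), matched for 7 of 8 genes. The labels name TRIzol for RNA extraction and the methods a column kit, and the title of the MII sample calls it an embryo. Python 3.11.15, pandas 2.3.3, numpy 2.4.6 and matplotlib 3.10.9 were used.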

Additional observations from a re-analysis of the deposited data

How the results depend on the processing

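No paired analysis was possible because each condition had 1 library, and for the same reason no replicate could be left out. Of 288 values of single genes under the alternatives, 275 kept their side of 2-fold, 263 of them with their sign and 12 with a turned sign that was not past 2-fold, 10 passed 2-fold only under the alternative, 3 no longer passed it, and none reversed from a called direction. In MII against GV the count of the 8 genes past 2-fold went from 1 to 0 under equal Gapdh and under equal FPKM sums. With both lower pseudocounts Sohlh1 was added in TubA-20 against GV (3 to 4), TubA-10 against GV (0 to 1, at 1.05 and 1.30) and TubA-20 against TubA-10 (2 to 3), and with the median set to 0 Sohlh2 was lost in TubA-20 against GV (0.96). In TubA-20 against MII it went from 1 to 2 with pseudocounts of 0.1 and 0.01, which added Sohlh1, and with equal FPKM sums and equal Gapdh, which added Lhx8 (as low as -1.01). With a pseudocount of 0.01 Sohlh1 went to -5.06 there, a value set by the pseudocount because TubA-20 is listed at 0. The median of the 8 genes crossed 0 in MII against GV, TubA-20 against GV and TubA-20 against MII, with values of -0.16 to 0.17, -0.17 to 0.45 and -0.31 to 0.16, and stayed between 0.10 and 0.21 in TubA-10 against MII.

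Over all genes, the number past 2-fold in TubA-20 against MII was 608, 2237 with a pseudocount of 0.1, 4126 with 0.01 and 1047 with equal FPKM sums. In MII against GV it was 2501, 4616 and 6507 with the 3 pseudocounts, in TubA-20 against GV 4239, 6862 and 8586, in TubA-10 against GV 1393, 3135 and 5106, in TubA-10 against MII 141, 1096 and 3097, and in TubA-20 against TubA-10 1358, 3141 and 5091. The share of higher genes among those past 2-fold in MII against GV was 26.7%. It was 14.0% with the median set to 0, 51.3% with equal Gapdh and 41.6% when FPKM sums were equal. In TubA-20 against GV it was 39.4% and 23.7% with the median set to 0, and in TubA-10 against GV 11.7% and 46.4% with equal Gapdh. In TubA-10 against MII it was 80.1%, 69.8% when FPKM sums were equal, 59.6% with a pseudocount of 0.1 and 55.0% with 0.01. In TubA-20 against MII it was 11.8%, 28.5% with a pseudocount of 0.01 and 5.98% with equal Gapdh. The median over 9193 genes from 1 FPKM was 0.13 in MII against GV, 0.14 in TubA-10 against GV and 0.19 in TubA-20 against GV, and the differences in the text are given without subtracting it. Low genes such as Sohlh1 are limited by depth.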

Other observations

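A list of 15 genes that FOXO factors are known to act on in other tissues was also read. In MII against GV 10 were higher and 5 lower, none past 2-fold where 11.4% of all genes and 29.0% of those from 5 FPKM were, with a median of 0.21. In TubA-20 against MII 11 were higher and 3 lower, none past 2-fold where 2.77% and 6.63% were, with a median of 0.07, beside a log2 difference of 0.50 for Foxo3 itself. With a pseudocount of 0.1 the count there was 1 higher, and with 0.01 it was 2 higher, among them Klf2 (up to 1.11). In MII against GV it was 1 lower and 3 lower with these pseudocounts. Ccng2, an atypical cyclin, had 7.38 FPKM in GV oocytes and 11.5 in MII oocytes, against 10.1 with TubA-10 and 15.0 with TubA-20, and Bnip3, a mitophagy receptor, had 15.6, 23.3, 26.1 and 29.4. Both had their highest FPKM in TubA-20, although Bnip3 in TubA-20 against TubA-10 (0.16) turned to -0.03 with another scaling. Cited2, a transcriptional co-regulator, was at 113 FPKM in both GV and MII oocytes, 159 with TubA-10, where it was highest, and 109 with TubA-20. In TubA-20 against GV the single gene past 2-fold was Klf2, a zinc finger factor, at 1.39, from 1.11 FPKM in GV and 4.52 in TubA-20, 1 of 15 where 19.3% of all genes and 47.0% of those from 5 FPKM passed; it is outside the rule for naming and was singled out after its values were seen. Irs2, Fbxo32, Trim63 and Pdk4 were at or under 0.232 FPKM in all 4 libraries.

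The E protein Tcf4 had 2.52 FPKM in GV oocytes and 6.06 in MII oocytes, against 4.09 with TubA-10 and 5.95 with TubA-20, with a log2 difference of 1.004 in MII against GV and 0.88 with the median of all genes set to 0. Id2 was at 5.97, 7.09, 6.25 and 5.36 FPKM in the same order. Among the markers of meiotic prophase, Sycp1 was at 7.26, 20.8, 17.7 and 23.5 FPKM and Sycp3 at 23.3, 45.9, 26.8 and 54.5, both highest in TubA-20, whereas Dmc1 was at 0.751, 1.001, 0.691 and 0.230 FPKM, lowest there. Prdm1 was at 3.31, 4.798, 4.50 and 4.56 FPKM.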
